A study of Homo sapiens with 6 samples.

Results

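The interferon response and RNA sensing genes described here are 51 genes of the 20263 in a table of raw read counts from U118 cells, an established human glioma line that the labels call astroblastoma cells. They were chosen by name for their roles as RNA and DNA sensors, interferon receptor chains, kinases, STAT and IRF transcription factors and interferon-stimulated genes. The choice was made with measured values in view, above all the low level of IFNAR1 in 1 library, so that library's difference from the rest is given as a description with no test. All 51 names were found in the table, and 49 passed the filter on low counts. The samples were taken on day 2 of siRNA transfection and comprise 6 libraries. The labels name 1 as wild type (WT), 1 as negative-control siRNA (siNC) and 4 as siRNA against RIPK2, a kinase gene (siRIPK2_1 to siRIPK2_4). WT is taken here as untransfected, which the labels do not state. The labels do not say whether the 4 knockdown libraries used different siRNAs or were separate cultures. A p-value here thus speaks of spread among libraries that may not be independent.

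Cells recognise double-stranded RNA in the cytoplasm through the helicases RIG-I (gene RIGI) and MDA5 (IFIH1), which signal through the mitochondrial adaptor MAVS, and in endosomes through TLR3. These sensors lead to type I interferon, which binds a receptor made of the chains IFNAR1 and IFNAR2. The receptor's kinases TYK2 and JAK1 then activate STAT proteins, which with IRF9 bind the interferon-stimulated response element (ISRE) in promoters of genes such as IFIT1, ISG15 and MX1. An siRNA is itself a short double-stranded RNA, and the genes of this pathway are commonly read to see whether a transfection set off the response.

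The promoters of many of these genes share letters of that element. The choice did not use the letters, but it took known interferon-stimulated genes by name, so a high share follows largely from the choice. RefSeq promoter windows (GRCh38.p14, 250 bases before to 50 bases after a transcription start) were found for 39 of the 51 genes, with 52 windows in all. The core letters GAAA, 2 bases of any kind, GAAA, searched on both strands, were present in 29 of the 52 windows (55.8%), against 3.57% of all 35116 windows. Counted by gene, 21 of 28 interferon-stimulated genes and 3 of the 11 sensors, receptors and factors with a window held them. Of all 27305 genes with a window, 4.38% did. Some matches are the same site counted again, as in PARP9 with DTX3L and in the windows of IFI44, PLSCR1 and IFI27. The letters TTC, 3 bases of any kind, GAA, the core of the gamma-activated site (GAS) that STAT dimers bind, were in 15 of the 52 windows (28.8%), against 7.66% of all windows. They overlapped the ISRE letters in IFI27, BST2, MX1 and IFITM1. The following 60-base stretches show the match, in capitals, for genes whose values come later. Each is written 5′ to 3′ on the strand of its gene, and TTTC with TTTC is the same core on the other strand.
SAMD9, chr7:93118081-93118140, minus strand: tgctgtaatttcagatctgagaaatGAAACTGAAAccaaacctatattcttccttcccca
DDX60, chr4:168318806-168318865, minus strand: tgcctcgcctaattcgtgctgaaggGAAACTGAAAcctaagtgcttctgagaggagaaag
ISG15, chr1:1013359-1013418, plus strand: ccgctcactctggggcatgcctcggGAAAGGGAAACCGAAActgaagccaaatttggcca
IFIT1, chr10:89392482-89392541, plus strand: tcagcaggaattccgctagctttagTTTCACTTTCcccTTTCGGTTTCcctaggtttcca
IFI44L, chr1:78620259-78620318, plus strand: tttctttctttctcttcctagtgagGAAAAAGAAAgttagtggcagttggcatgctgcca
IFIH1, chr2:162318809-162318868, minus strand: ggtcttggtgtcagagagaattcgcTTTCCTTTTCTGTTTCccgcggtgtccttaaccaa

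The SAMD9 match begins 136 bases before the start, the DDX60 match 88, the first ISG15 match 113 and the first IFIT1 match 116. SAMD9L, the neighbour and relative of SAMD9, and IFNAR1 had windows without these letters, which says nothing about the factors that act there.

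**Figure D1:**
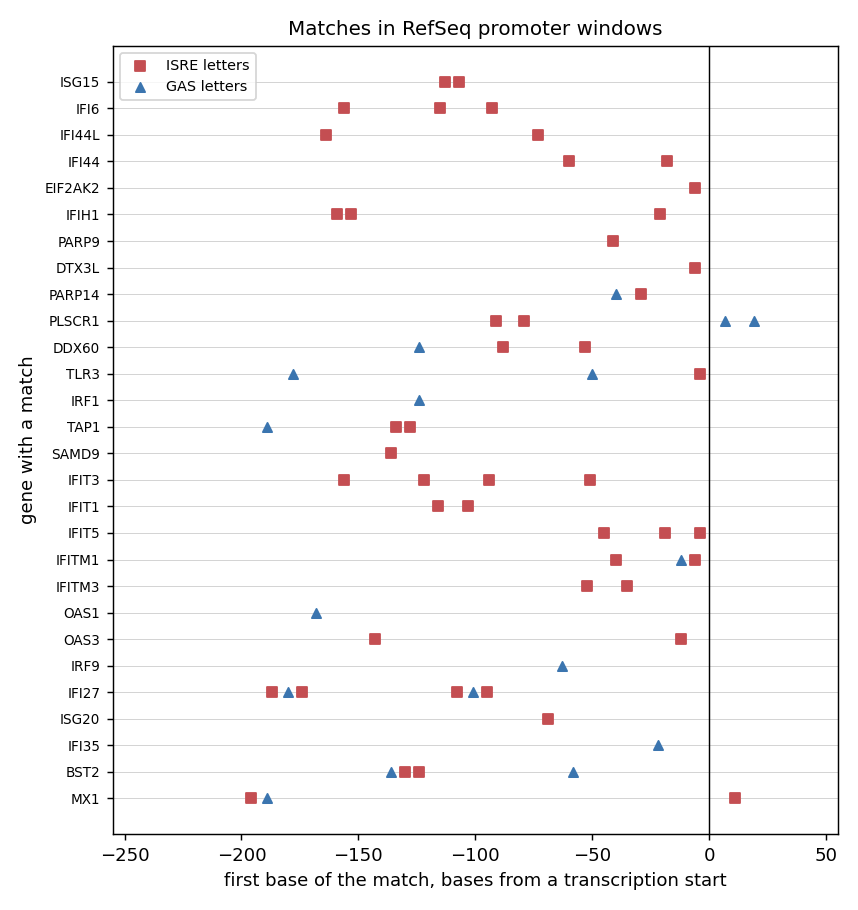
Position of each match to the ISRE core (red squares) and the GAS core (blue triangles), in bases from a transcription start (vertical line at 0), for the genes with a match in a RefSeq window. Genes with several starts have their matches drawn for each, and nearly all squares lie before the start.

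Most of the genes were expressed in these cells without any added interferon, and the spread among libraries was close to that of other genes. Levels are given as CPM, counts scaled to library size with TMM factors. As means over the 6 libraries, 6 of the 51 genes had at least 100 CPM, 32 had 10 to 100, 9 had 1 to 10 and 4 had less than 1 CPM. The median SD over the 6 libraries was 0.298 on the log2(CPM + 1) scale for the 49 genes that passed the filter, against 0.282 for all 14306. In 30 of the 49 the highest library was less than 2 times the lowest. Per kilobase of exon, the highest mean levels were 55.1 CPM for IFITM3, which blocks viral entry, 48.5 CPM for JAK1 and 48.03 CPM for UBE2L6, which conjugates ISG15. The antiviral GTPase gene MX1, a gene that is strongly induced by interferon, had 3.00 CPM in WT, 1.78 CPM in siNC and 2.28 to 2.86 CPM in the knockdown libraries. MX2 had 0 to 2 counts in every library and the DNA sensor gene CGAS 0 to 4, near or under the floor of 3 counts (0.0662 to 0.0894 CPM). IFI27 and IFITM1 had means of 0.508 and 0.333 CPM. Exons of 14 of the 51 genes overlap another listed gene, among them PARP9 with DTX3L and IFITM1 with IFITM2, and the IFITM genes are also close in sequence, so their reads may be divided uncertainly.

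**Figure D2:**
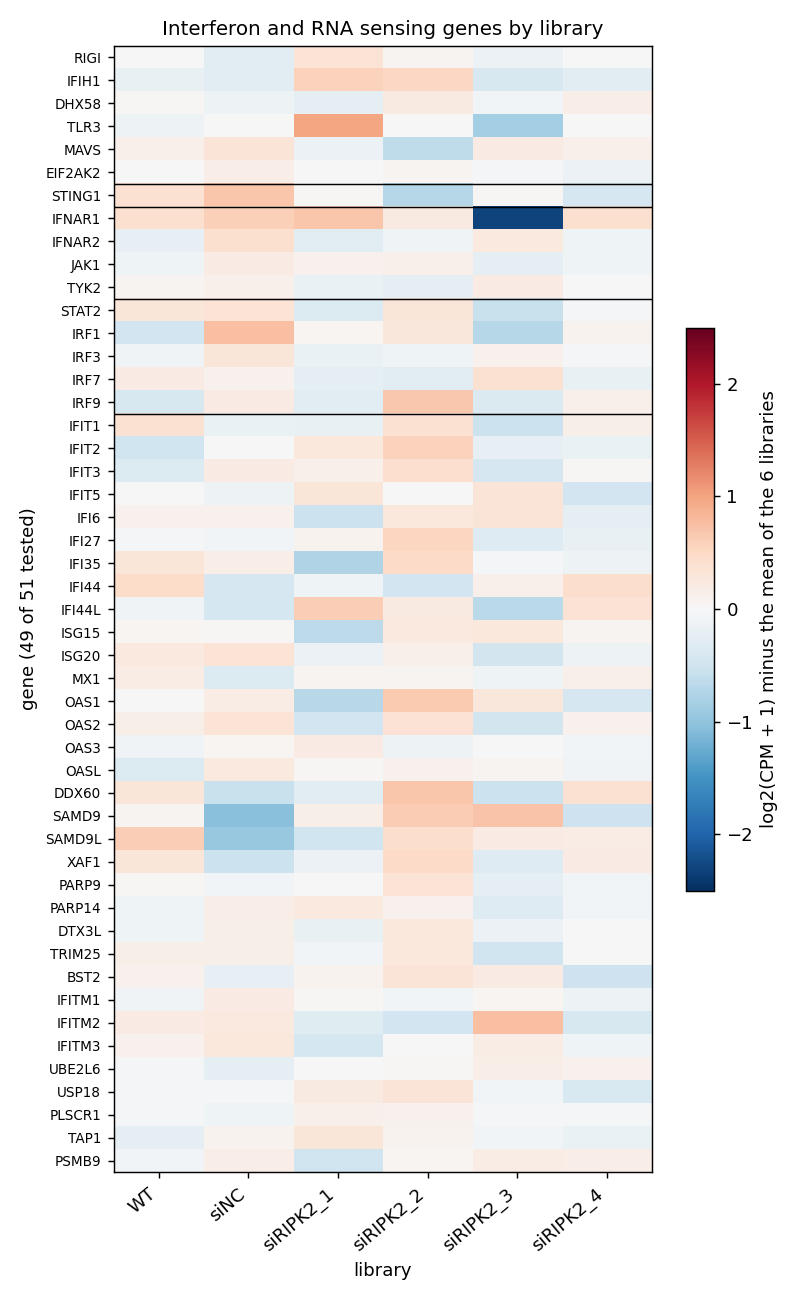
Level of each of the 49 genes that passed the filter in each of the 6 libraries, as log2(CPM + 1) minus the gene's mean over the 6 (red higher, blue lower). Black lines divide RNA sensors, STING1, receptor and kinases, STAT and IRF factors, and interferon-stimulated genes. The darkest cell is IFNAR1 in siRIPK2_3, and no library is red or blue throughout.

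Total counts ranged from 33540619 in siNC to 45309423 in siRIPK2_3. RIPK2 itself was at 56.8 CPM in WT, 43.4 CPM in siNC and 3.86 to 11.9 CPM in the knockdown libraries, so the target was low wherever the labels say so. Against both controls together its log2 fold change was -2.93 (SE 0.426), with an adjusted p of 0.739 in edgeR and 1.74e-06 in DESeq2. The main test, edgeR, thus did not call even the silenced target, and a gene that it does not call may still have changed. Of 9 astrocyte and glioma markers 5 had at least 1 CPM, VIM among them at 3813 to 7572 CPM, while GFAP was at 0.532 to 1.09 CPM and AQP4 at 0. Lymphocyte markers summed to 0.139 to 0.55 CPM. Of 7 macrophage and microglia markers, AIF1 and TYROBP were at 0 in every library and CD68 made up most of a sum of 95.2 to 166.7 CPM. CSF1R, another of the 7, was at 1.18 to 3.69 CPM. The 4 endothelial markers summed to 1.925 to 7.54 CPM and the 4 epithelial markers to 3.93 to 7.36 CPM. Of 4 plasmacytoid dendritic cell markers, CLEC4C and LILRA4 were at 0, IL3RA was at 0 to 0.0555 CPM and TCF4 at 11.7 CPM or more in every library, highest in siRIPK2_1.

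Set against WT, none of the 49 genes passed the test in the siRNA libraries, interferon-stimulated genes included. With the 5 transfected libraries as 1 group, the 49 genes had a median log2 fold change of 0.02 (26 higher, 23 lower), and all 14306 genes had 0.01. In edgeR 0 of 49 passed an adjusted p of 0.05, as did 0% of all genes, and DESeq2 and limma-voom also called 0 of the 49. At an unadjusted p under 0.05 in edgeR, 0 of the 49 were higher (0.72% of all genes) and 0 lower (0.294%). Only 4 of the 49 genes had all 5 transfected libraries above WT, namely IRF9, IFIT2, OASL and TAP1, against 8.21% of all genes. Another 3, IFI44, MX1 and SAMD9L, had all 5 below WT, against 9.41% of all genes. Both shares lie near or under the background.

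The 5 libraries did not all lie on the same side of WT. On the log2(CPM + 1) scale the median difference from WT over the 49 genes was 0.04 in siNC, -0.06 in siRIPK2_1, 0.14 in siRIPK2_2, -0.05 in siRIPK2_3 and -0.03 in siRIPK2_4. In siRIPK2_2, 35 of the 49 genes were above WT, and among the 33 interferon-stimulated genes 26 were, against 49.2% of all genes. At most 2 of the 49 were at least 2-fold above WT in a library (siRIPK2_2, where 1.29% of all genes were). At most 2 were at least 2-fold below, in siNC (2.34% of all genes) and in siRIPK2_1 (3.05%).

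**Figure D3:**
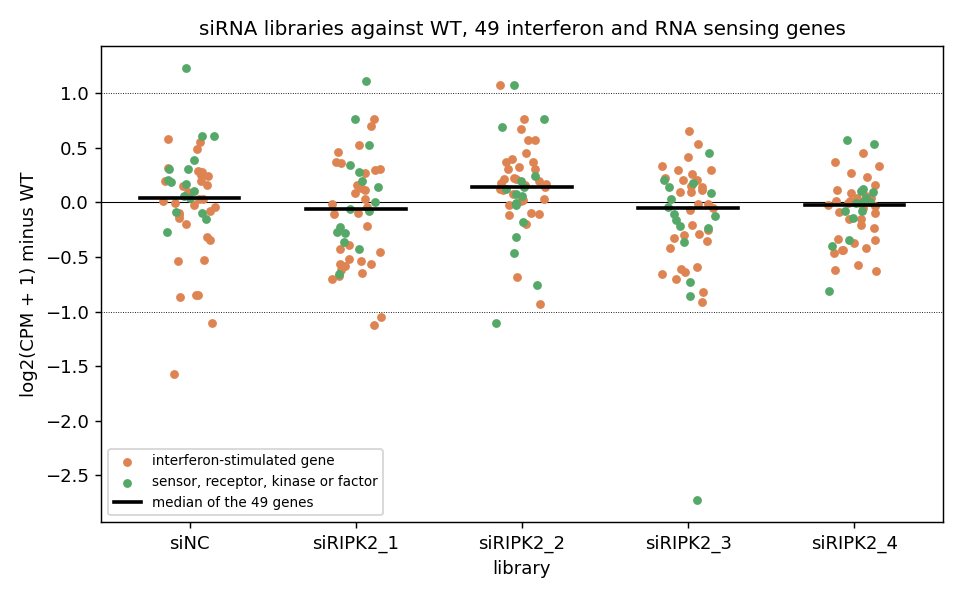
Difference from WT in log2(CPM + 1) for each of the 49 genes (points) in each siRNA library, with the median as a black bar and grey lines at 2-fold. Interferon-stimulated genes are orange and sensors, receptors, kinases and factors green. Medians lie between -0.06 and 0.14, and the lowest point is IFNAR1 in siRIPK2_3.

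IFIT2, an RNA-binding interferon-stimulated gene, had the lowest unadjusted p of the 49 against WT. Its exons overlap those of LIPA, and the strand setting is not stated. IFIT2 was at 7.05 CPM in WT, 10.3 CPM in siNC and 12.7, 16.01, 8.90 and 9.16 CPM in siRIPK2_1 to siRIPK2_4. All 5 siRNA libraries were above WT, by a log2 fold change of 0.69 (SE 0.433, unadjusted p = 0.143 and adjusted p = 1 in edgeR). Its neighbours in the same gene cluster did not have all 5 siRNA libraries above WT. IFIT3 was at 13.5 CPM in WT and at 20.2, 19.0, 23.6, 12.8 and 17.7 CPM in siNC and siRIPK2_1 to siRIPK2_4, so only siRIPK2_3 was below WT. IFIT1, the sensor of RNA lacking cap methylation, was at 8.46 CPM in WT and at 5.52, 5.40, 8.55, 4.03 and 7.07 CPM in the same order, so only siRIPK2_2 reached WT. OASL, an OAS relative that enhances RIG-I signalling, was at 4.25 CPM in WT and 5.31 to 6.86 CPM in the siRNA libraries. TAP1, a subunit of the peptide transporter for antigen presentation, was at 73.8 CPM in WT and 77.1 to 106.5 CPM.

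With the knockdown libraries alone against WT, the median of the 49 was 0.04 (26 higher, 23 lower), beside 0.01 for all genes. Adjusted p values in edgeR passed for 0 of 49 and 0% of all genes. At an unadjusted p under 0.05, 0 were higher (background 0.664%) and 0 lower (0.419%), and DESeq2 and limma-voom called 0. STING1, which carries the signal of cytoplasmic DNA sensing and was expressed in the near absence of CGAS, had a log2 fold change of -0.88 (SE 0.561, unadjusted p = 0.157 in edgeR). The corresponding values were -0.43 for STAT2, 0.45 for OASL and -0.42 for IFI44.

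Against siNC, none of the 49 genes passed the adjusted threshold, and the lowest unadjusted p values belonged to SAMD9, SAMD9L, STING1 and IRF1. SAMD9 and SAMD9L lie side by side on chromosome 7 (GRCh38, GENCODE 29, minus strand, 93099513 to 93118023 and 93130055 to 93148369), and encode related cytoplasmic proteins that restrict viruses and cell growth. SAMD9 was at 25.6 CPM in WT, 11.4 CPM in siNC and 27.3, 38.5, 40.8 and 16.9 CPM in siRIPK2_1 to siRIPK2_4. Every knockdown library was above siNC, while siRIPK2_4 was below WT. SAMD9, like IFNAR1, was a marker in the choice of genes, which was made with values in view, so its p-values are only a description. The log2 fold change against siNC was 1.44 (SE 0.543, unadjusted p = 0.0303 and adjusted p = 0.985 in edgeR), and against WT it was 0.27 (SE 0.497, unadjusted p = 0.604 in edgeR). SAMD9L was at 24.2 CPM in WT, 7.48 CPM in siNC and 10.54, 21.0, 17.8 and 17.6 CPM in the knockdown libraries, all above siNC and all below WT. Its log2 fold change was 1.16 against siNC (SE 0.465, unadjusted p = 0.038 and adjusted p = 1 in edgeR) and -0.53 against WT.

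These 2 genes were the only ones of the 49 with an unadjusted p under 0.05 against siNC that were higher (background 3.56% of all genes), and 0 were lower (1.21%). Adjusted p values passed for 0 of 49 and 0% of all genes, and DESeq2 and limma-voom called 0 of the 49. Over the 49 genes the median log2 fold change against siNC was -0.13 (20 higher, 29 lower), beside 0.02 for all genes. All 4 receptor and kinase genes and all 5 STAT and IRF factors among the 49 had negative values, from -0.80 to -0.12. Interferon-stimulated genes were divided 16 higher and 17 lower, and 6912 of all 14306 genes were lower. Against WT the same knockdown libraries had 2 of the 4 and 3 of the 5 higher. In siNC against WT 4 of the 4 and 4 of the 5 were higher. The lone siNC library is shared by 2 of these 3 comparisons. The 4 include IFNAR1, whose low siRIPK2_3 value was in view when the genes were chosen. Without siRIPK2_3 the IFNAR1 log2 fold change was -0.14 against siNC and 0.0446 against WT. IRF1, a factor induced by interferon and by NF-kB, was at 26.4 CPM in WT, 63.5 CPM in siNC and 38.5, 45.6, 22.3 and 39.8 CPM in siRIPK2_1 to siRIPK2_4. The siNC library stood above all others, and siRIPK2_3 was below WT. Its log2 fold change was -0.80 against siNC (SE 0.391, unadjusted p = 0.0771 in edgeR). IRF1 exons overlap the antisense gene IRF1-AS1, and without a stated strand setting their reads cannot be told apart.

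The comparison of siNC with WT shares its libraries with those above, and siNC has no replicate. SAMD9L had a log2 fold change of -1.69 (SE 0.555, unadjusted p = 0.0165 and adjusted p = 1 in edgeR), SAMD9 -1.17, XAF1 -0.93, IFI44 -0.88 and IRF1 1.27 (SE 0.53, unadjusted p = 0.0448 and adjusted p = 1 in edgeR). XAF1, a proapoptotic interferon-stimulated gene, was at 15.4 CPM in WT, 8.10 CPM in siNC and 11.02, 17.5, 9.57 and 14.4 CPM in the knockdown libraries. DDX60, a helicase that assists RIG-I, was at 8.41 CPM in WT, 4.24 CPM in siNC and 5.30, 11.4, 4.32 and 8.99 CPM. Both were lowest in siNC, but siRIPK2_3 was nearly as low for DDX60. One of the 49 had an unadjusted p under 0.05 and was higher (background 0.643%), and 1 was lower (2.09%). Adjusted p values passed for 0 of 49 and 0% of all genes, and DESeq2 and limma-voom called 0. In all, siNC was the lowest of the 6 libraries for 8 of the 49 genes (17.6% of all genes) and the highest for 12, or 24.5% (15.2% of all genes).

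With both control libraries together as the reference, the 4 knockdown libraries did not overlap the controls in 4 of the 49 genes. UBE2L6 was above both (1 of 49, against 4.96% of all genes), and STING1, STAT2 and ISG20 were below both (3 of 49, against 5.5%). These shares are near the background. STING1 (chromosome 5, 139475534 to 139482935, minus strand) was at 3.36 CPM in WT, 4.39 CPM in siNC and 2.40, 1.02, 2.39 and 1.48 CPM in siRIPK2_1 to siRIPK2_4, from 42 to 141 counts. Its knockdown mean was 1.82 ± 0.686 CPM (SD, n = 4). The log2 fold change was -1.09 (SE 0.419, unadjusted p = 0.0299 and adjusted p = 1 in edgeR). STAT2, the STAT that joins IRF9 in the ISRE-binding complex, was at 75.6 CPM in WT and 77.9 CPM in siNC. In the knockdown libraries it was at 47.8, 75.4, 41.4 and 59.4 CPM, so siRIPK2_2 lay next to WT and the other 3 below. Its log2 fold change was -0.45 (SE 0.264, unadjusted p = 0.121 in edgeR). ISG20, an RNA exonuclease gene, was at 6.13 and 6.64 CPM in the controls and 4.44, 5.61, 3.39 and 4.51 CPM in the knockdown libraries.

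UBE2L6 was at 101.8 CPM in WT, 88.6 CPM in siNC and 104.2, 107.4, 117.3 and 113.9 CPM in siRIPK2_1 to siRIPK2_4, a log2 fold change of 0.22 (unadjusted p = 0.286 in edgeR). Of the 49 genes, 1 had an unadjusted p under 0.05 and was lower (STING1, background 1.23%), and 0 were higher (1.32%). Adjusted p values passed for 0 of 49 and 0% of all genes, and DESeq2 and limma-voom called 0. The median was -0.03, beside 0.01 for all genes.

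IFNAR1, the chain of the type I interferon receptor that holds TYK2, was low in siRIPK2_3 and in no other library. It was at 47.7 CPM in WT, 54.3 CPM in siNC and 58.2, 41.9, 6.33 and 47.4 CPM in siRIPK2_1 to siRIPK2_4. The siRIPK2_3 value rests on 286 counts, with a 95% exact Poisson interval of 5.62 to 7.11 CPM that covers counting error only. It was 12.7% of the mean of the other 5 libraries and 15.1% of the lowest of them. The difference of -2.79 on the log2(CPM + 1) scale was one that 10 of the 14306 genes, IFNAR1 included, reached in the same direction. IFNAR1 lies on chromosome 21 (33324477 to 33359862, plus strand) in a cluster of cytokine receptor genes. Of its neighbours, IFNAR2 was at 16.1 CPM in siRIPK2_3, within the 10.97 to 18.02 CPM of the other libraries, and IL10RB at 9.50 CPM, within 9.21 to 16.4 CPM. IFNGR2, a chain of the interferon gamma receptor, was at 16.9 CPM in siRIPK2_3 against 29.2 to 48.7 CPM elsewhere, and, like IL10RB, was singled out after its values were seen. The sequences of the siRNAs were not used here, and the cause of these levels was not tested.

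**Figure D4:**
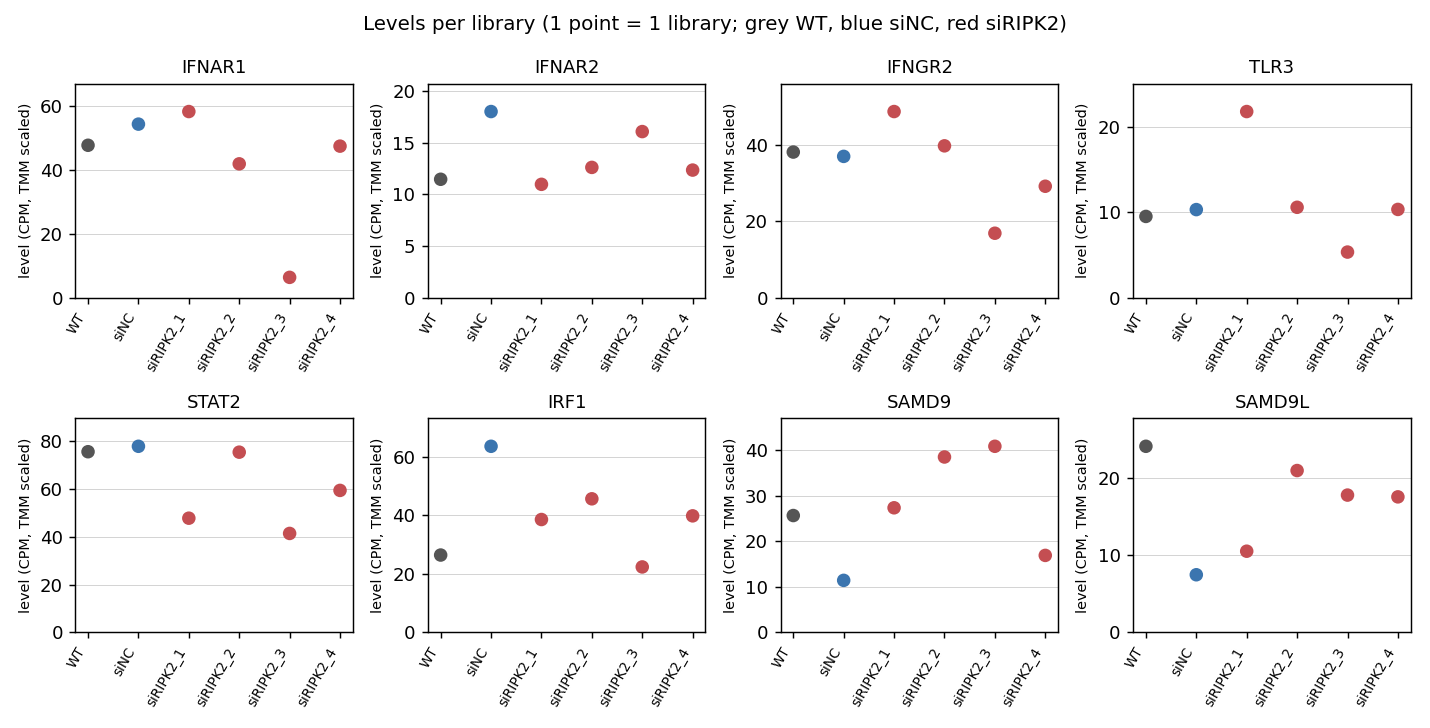
Level in CPM of 8 genes in each library (1 point per library, axes from 0). IFNAR1 and IFNGR2 are lowest in siRIPK2_3, IFNAR2 is not, and SAMD9 and SAMD9L are lowest in siNC.

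The other genes among the 49 were divided in direction in siRIPK2_3. TLR3 was at 5.34 CPM there, against 9.52 CPM in WT, 10.3 CPM in siNC, 21.8 CPM in siRIPK2_1, 10.6 CPM in siRIPK2_2 and 10.3 CPM in siRIPK2_4. With IFNAR1 it was 1 of 2 genes of the 49 at least 2-fold below the mean of the other 5 (background 2.51%), and 0 were at least 2-fold above (background 1.06%). TLR3 lay just inside that limit, with a difference of -1.02, and IRF1 just outside it with -0.85. The siRIPK2_3 library was the lowest of the 6 for 14 of the 49 genes, or 28.6% (background 17.9%), and the highest for 9, or 18.4% (background 20.4%). The members were chosen with this library in view, so nothing is read from these shares.

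Below all other libraries, besides IFNAR1, TLR3 and IRF1, were IFI44L, STAT2, IFIT1, TRIM25, ISG20, IFIT3, IFIH1, IFI27, PARP14, JAK1 and PARP9. IFI44L was at 10.8 CPM against 13.06 to 28.0 CPM in the other 5, and IFIT1 at 4.03 CPM against 5.40 to 8.55 CPM. TRIM25, the ubiquitin ligase that acts with RIG-I, was at 116 CPM against 158 to 199.6 CPM. IFIH1 was at 10.4 CPM against 11.5 to 21.4 CPM. Besides IFNAR1 and TLR3, the widest gaps to the lowest other library were 1.71 times for IFI27, which rests on 8 counts in siRIPK2_3, 1.36 times for TRIM25, 1.34 times for IFIT1 and 1.31 times for ISG20.

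Above all other libraries in siRIPK2_3 were IFITM2, SAMD9, IRF7, IFI6, IFIT5, ISG15, TYK2, PSMB9 and UBE2L6. IFITM2 was at 5.63 CPM against 1.85 to 3.68 CPM, with IFITM1 overlapping it. IRF7, the factor that amplifies type I interferon production, was at 14.2 CPM against 8.75 to 12.4 CPM. ISG15, the ubiquitin-like protein gene whose product UBE2L6 conjugates, was at 25.2 CPM, and siRIPK2_2 was almost level at 25.03 CPM. Over the 33 interferon-stimulated genes 18 were lower and 15 higher than the mean of the other 5, with a median difference of -0.07, beside 0.01 for all genes. Levels in 1 library cannot tell a response of the cells from the state of that culture.

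**Figure D5:**
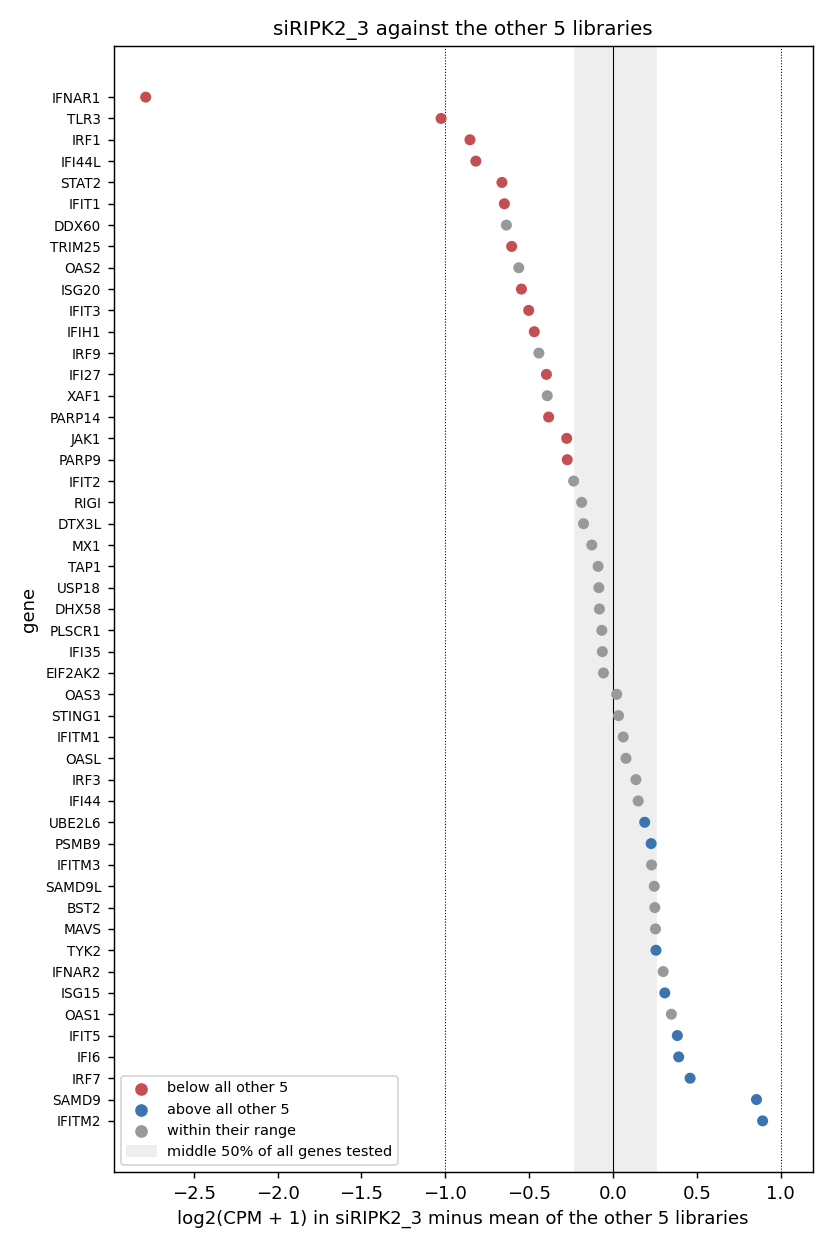
Difference between siRIPK2_3 and the mean of the other 5 libraries in log2(CPM + 1) for each of the 49 genes, coloured by whether siRIPK2_3 lies below (red), above (blue) or within (grey) their range. Grey lines mark 2-fold and the grey band the middle 50% of all 14306 genes. IFNAR1 lies at -2.79, TLR3 at -1.02 and the highest, IFITM2, at 0.89.

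The siRIPK2_2 library, which kept the most RIPK2 of the 4, was the highest of the 6 for 16 of the 49 genes, or 32.7% (background 17.9%), and the lowest for 7 (background 17.1%). The library siRIPK2_4 was the highest for 0 of the 49 (background 16.3%). Genes highest in siRIPK2_2 included OAS1, the synthetase that activates RNase L, at 35.5 CPM against 13.3 to 27.3 CPM in the other libraries. IRF9 was at 7.22 CPM against 2.89 to 4.92 CPM, and DDX60 at 11.4 CPM against 4.24 to 8.99 CPM. IFI35 was at 58.5 CPM against 24.5 to 51.9 CPM, with siRIPK2_1 the lowest. In OAS1 the lowest library was likewise siRIPK2_1, so these genes spread widely among the 4 knockdown libraries. IFNAR1 in siRIPK2_2, at 41.9 CPM, was the lowest of the 5 libraries other than siRIPK2_3. MAVS was lowest in siRIPK2_2, at 156 CPM against 218 to 304.5 CPM elsewhere.

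Among other genes of the pathway, taken from lists written without regard to how they moved but with earlier results of these data known, the interferon genes were almost silent. Of 22 interferon genes 21 had 0 counts in all 6 libraries, IFNB1 among them. IFNL1, which encodes a type III interferon, had 0 counts in WT and siNC and 4, 6, 4 and 4 counts in siRIPK2_1 to siRIPK2_4 (0.0886 to 0.146 CPM), too few to pass the filter, and no fold is given. Of 29 tested sensing adaptors and regulators, 29 other receptor, JAK, STAT and IRF genes and 52 other interferon-stimulated genes, 0 passed an adjusted p in edgeR in any of the 5 comparisons. At an unadjusted p under 0.05 against siNC, 2 of the sensing genes were higher, 1 of the receptor genes lower and 2 of the interferon-stimulated genes lower, beside 3.56% of all genes higher and 1.21% lower. Against both controls, where 28, 27 and 52 were tested, the counts were 1 higher, 1 higher with 1 lower, and 0, beside 1.32% of all genes higher and 1.23% lower. ZCCHC3, a cofactor of RNA and DNA sensing, was at 46.7 CPM in WT, 43.8 CPM in siNC and 61.9, 80.7, 99.3 and 94.03 CPM in the knockdown libraries, without overlap. Against both controls its log2 fold change was 0.89 (SE 0.249, unadjusted p = 0.00614 and adjusted p = 1 in edgeR). SOCS2, a suppressor of cytokine signalling, was at 11.5 and 11.3 CPM in the controls and 4.54, 5.15, 5.65 and 7.48 CPM in the knockdown libraries. Its log2 fold change was -0.997 (SE 0.288, unadjusted p = 0.00747 and adjusted p = 1 in edgeR). STAT3, the receptor-list gene that was higher, was at 121.4 CPM in WT and 114.3 CPM in siNC. In the knockdown libraries it was at 239.5, 185.3, 174.7 and 144.1 CPM. The STAT3 log2 fold change was 0.66 (SE 0.244, unadjusted p = 0.0251 in edgeR).

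Against siNC, TRIM5, a restriction factor for retroviruses, had 20.8 CPM in the siNC library, 9.46 CPM in WT and 7.69 to 12.0 CPM in the knockdown libraries. PSMB10, an immunoproteasome subunit, had 31.2 CPM in that library, 14.3 CPM in WT and 13.07 to 18.0 CPM, so in both genes the siNC library alone stood high. In siRIPK2_3, 38 of the 52 other interferon-stimulated genes were lower than the mean of the other 5 and 14 higher, with a median difference of -0.17. Of all 14306 genes 6971 were lower, with a median of 0.01. Of these 52, 17 lay below all other libraries and 5 above, to be set beside the 17.9% and 20.4% of all genes given above.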

How the data were processed

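The authors deposited whole-number read counts for each Ensembl ID, not normalised. Tools named in the submitters' processing notes are bedtools, HISAT2, Trimmomatic and FastQC, and the build is GRCh38. Not given in the sources used here are the strand setting, tool versions and which annotation was counted. Each of the 6 columns matched 1 sample by name. Symbols came from a gene name table, positions, exon lengths and overlaps from GENCODE 29, and promoters from RefSeq. The genes, lists and rules were chosen with earlier results of these data known.

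The deposited counts were tested in edgeR 4.0.16 (R 4.3.3) with TMM scaling, filterByExpr (minimum count 10), the quasi-likelihood F test and Benjamini-Hochberg adjustment over all genes, threshold 0.05. A fit with 3 groups (3 residual degrees of freedom, all from the siRIPK2 libraries, so the lone controls are assumed to vary like them) compared siRIPK2 with each control and the controls with each other. Fits with 2 groups gave siRIPK2 against both controls (13901 genes) and all 5 transfected libraries against WT. Alternatives were RLE scaling, no filter, DESeq2 1.42.0, limma-voom (limma 3.58.1) and leaving out each library. On simulated counts for 14306 genes, edgeR recovered 4% of 2-fold and 78% of 4-fold changes in siRIPK2 against both controls, and 0% and 46% in transfected against WT. Each simulation held 50 changed genes at each of 2-, 4-, 8- and 16-fold, and adjusted p values depend on how many genes change. These shares may be too high for the data, where RIPK2 did not pass in edgeR against both controls at a log2 fold change of -2.93.

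The library siRIPK2_3 was compared with the other 5 on log2(CPM + 1), with no test. Named genes were IFNAR1, SAMD9, up to 6 genes of at least 1 CPM with the lowest unadjusted p per comparison, the widest gaps in siRIPK2_3, and others as values by role.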

Additional observations from a re-analysis of the deposited data

Results flagged for a closer look

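Among the 4 siRIPK2 libraries, 2 of the 50 genes examined (the 49 and RIPK2) had 1 library far from the rest by Dixon's criterion. Its chance rate of about 1 gene in 20 does not hold for genes chosen with these values in view. In IRF7 the gap of siRIPK2_3 (14.2 CPM) to the next library was 0.915 of the whole range. In IFITM2 the gap of siRIPK2_3 (5.63 CPM) was 0.908 of the range. Both values are high ones, and IFITM2 shares exon positions with IFITM1. IFNAR1 was not marked. Both marks fall on siRIPK2_3, the library in view when the genes were chosen, so nothing is read from them.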

How the results depend on the processing

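No gene of the 49 passed the adjusted threshold in edgeR, DESeq2 or limma-voom in any comparison or setting run (DESeq2 gave 1 of them no adjusted p against both controls), and the adjusted p of the named genes ranged from 0.333 to 1. No paired analysis was possible because WT and siNC have 1 library each and no replicate number in the labels. Over all genes, DESeq2 called 74 against siNC, 9 for siRIPK2 against WT, 11 for siNC against WT, 11 against both controls and 7 for transfected against WT, where edgeR called 0. Both limma-voom and edgeR without the filter called 1 for siRIPK2 against WT and 1 for transfected against WT. Leaving out 1 library gave 0 to 2 calls against both controls (2 without siRIPK2_1 or siRIPK2_2). The median of the 49 genes then ranged from -0.0532 (without siRIPK2_2) to 0.0479 for siRIPK2 against WT and from -0.13 (without WT) to 0.0479 against both controls. The IFNAR1 log2 fold change ranged from -0.582 to 0.0446 for siRIPK2 against WT and from -0.344 to 0.0818 for transfected against WT, turning positive without siRIPK2_3, the low library. SAMD9 in transfected against WT ranged from -0.12 to 0.27, turning negative without siRIPK2_2 or siRIPK2_3, and was -0.0602 in limma-voom. The SAMD9 value against both controls was 1.43 without WT and 0.27 without siNC. For siRIPK2_3, genes at least 2-fold below ranged from 1 (without siRIPK2_1, when TLR3 drops out) to 3, and genes at least 2-fold above from 0 to 1 (without siRIPK2_2). With a pseudocount of 0.5 CPM 1 gene was at least 2-fold above, as it was against the other 3 siRIPK2 libraries. Genes above the range numbered 9 to 14, with 14 without siNC and 14 against the other 3 siRIPK2 libraries. Genes below the range numbered 14 to 19 on leaving out 1 library, with 19 without siNC, and 21 against the other 3 siRIPK2 libraries. On simulated counts with the spread and numbers of these libraries, 0% of 2-fold and 42% of 4-fold changes were recovered against siNC. Depth and the number of changed genes were not varied.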

Other observations

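Genes whose promoter windows held the ISRE core letters were compared with those whose windows did not, as medians with no test. The 24 genes with the letters had a median log2 fold change of 0.05 for transfected libraries against WT (14 higher, 10 lower), and the 15 without had -0.08 (7 higher, 8 lower). Against siNC the medians were 0.13 (13 of 24 higher) and -0.18 (4 of 15 higher), where 7394 of all 14306 genes were higher. For siNC against WT, which shares the lone siNC library, they were -0.05 (11 of 24 higher) and 0.06 (9 of 15 higher). Letters and role cannot be told apart here, as 21 of 28 interferon-stimulated genes but 3 of the 11 other genes held them. In siRIPK2_3 the median differences from the other 5 libraries were -0.11 (9 of 24 higher) and -0.19 (6 of 15 higher). The difference between these medians was not tested, and the 15 genes include IFNAR1, whose level in siRIPK2_3 was in view when the genes were chosen.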
